A study of Mus musculus with 24 samples.

Results

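The 638bm VR line, which carries the label resistant to bortezomib, was compared with the 638bm line, labelled sensitive, at every sampled time, on 12 of the 24 bead arrays of the series (6 per line). Arrays were matched by the time in their titles (0h, 2h, 8h, 16h, 24h and 24h_2), so that each VR array had 1 partner. Both lines carry the cell line label 638bm, come from multiple myeloma of Bcl-XL/Myc double transgenic mice on a mixed FVBN and BL/6 background, and were sampled untreated at 0 h and in 33 nM bortezomib at the later times. The labels do not say how the VR line was obtained, which promoters drive the transgenes, or whether arrays of a line came from separate cultures. A second pair of lines of the same genotype, 595sp and 595sp VR, was used to ask which differences were particular to the 638bm pair. The p-values below measure how steady a difference was over the times of 1 pair of lines, not how lines or cultures vary.

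Bortezomib blocks the chymotrypsin-like site of the proteasome, the particle that degrades ubiquitin-tagged proteins. Its 20S core holds the catalytic subunits, among them the drug's target Psmb5, and a 19S cap unfolds and feeds in the substrates. Plasma cells, from which myeloma arises, secrete much protein and depend on this disposal and on the stress responses of the endoplasmic reticulum, and cells kept in the drug are known to change proteasome genes, survival signalling and metabolism in many ways.

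Between 15250 and 16625 of 45281 probes lay above background on each of the 12 arrays, and 10969 genes were tested. The 2 arrays of a line at 24 h differed with an SD across genes of 0.183 log2 units in 638bm and 0.196 in 638bm VR. By the title-matched differences the line effect was similar over time, with correlations across genes of 0.678 to 0.936 between pairs of arrays; genes are not independent replicates. For 4 of the 6 VR arrays the timepoint characteristic names another time than the title, and the titles were followed. Genes were measured only with a probe above background on at least 2 of the 24 arrays, so the marker counts that follow are largely set by that filter. Of 22 listed plasma cell markers 15 were measured. Of these, 14 lay above background on at least 1 of the 12 arrays, and Sdc1, Xbp1 and Irf4 on all 12. Of 27 listed B cell markers 21 were measured, and 21 lay above background on at least 1 array. Of 26 listed T and natural killer cell markers 12 were measured, and 9 lay above background on at least 1 of the 12 arrays. Cd6 (9.46 to 11.02) and Prf1 (7.84 to 11.07) did so on all 12, while the defining genes Cd3d, Cd3g and Thy1 did so on 0. Summed over the list, the mean log2 level of these 12 markers ran from 6.84 to 7.32 on the 638bm arrays and from 6.41 to 6.72 on the VR arrays, and their part in the results was not tested.

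In all, 5601 genes (51.1% of those tested) differed between the lines at an adjusted p under 0.05 (limma with time as a block, Benjamini-Hochberg), 3052 higher in 638bm VR (27.8%) and 2549 lower (23.2%). The median difference over all genes was 0.057 log2 units and the median size 0.355. A stricter rule asked for at least 1 log2 unit in the same direction in all 6 matched pairs. It left 607 genes (5.53%), 298 higher in the VR line (2.72%) and 309 lower (2.82%). Of these, 21 were above background on none of the 6 arrays of 638bm and 48 on none of the 6 arrays of 638bm VR. For such genes a bound is given in place of a fold.

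The largest difference among them was that of Cd63, a tetraspanin of late endosomes and secreted vesicles. Its normalised log2 signal ran from 5.70 to 6.36 (median 6.09) on the 638bm arrays and from 11.62 to 12.20 (median 11.89) on the VR arrays. The ranges lay far apart, and the fitted difference was 5.87 ± 0.15 (SE; adjusted p = 2.64e-08, 58.3-fold). Ifitm1, which codes for an interferon-induced membrane protein that restricts virus entry, ran from 6.65 to 7.53 (median 6.91) against 11.70 to 12.27 (median 12.23), a difference of 4.97 ± 0.14 (adjusted p = 4.33e-08). Its neighbour Ifitm2 ran from 5.70 to 6.74 (median 5.91) against 9.07 to 9.91 (median 9.60), with a difference of 3.34 ± 0.13 (adjusted p = 1.58e-07). Neither gene's ranges overlapped. A further member of the family, Ifitm3, lay above background on 0 of the 12 arrays.

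The promoters of these neighbours on chromosome 7 are shown because the genes are interferon targets. They are from RefSeq (build GRCm38.p6, the first entry of each gene), 250 bases before to 50 after the gene start, 5′ to 3′ on the strand of the gene. Capitals mark the core of the interferon-stimulated response element, spelled GAAA, any 2 bases, GAAA and searched on both strands, which 943 of 27025 promoters hold (3.49%). Ifitm1 is at chr7:140967826-140968125 (plus strand), Ifitm2 at chr7:140955912-140956211 (minus strand) and Ifitm3 at chr7:141010695-141010994 (minus strand).
Ifitm1: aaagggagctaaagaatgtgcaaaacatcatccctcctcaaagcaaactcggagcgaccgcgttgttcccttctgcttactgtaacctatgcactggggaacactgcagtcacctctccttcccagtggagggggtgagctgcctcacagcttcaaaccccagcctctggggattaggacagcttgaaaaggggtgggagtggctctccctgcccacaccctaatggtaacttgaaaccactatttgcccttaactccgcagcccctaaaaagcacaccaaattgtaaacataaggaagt
Ifitm2: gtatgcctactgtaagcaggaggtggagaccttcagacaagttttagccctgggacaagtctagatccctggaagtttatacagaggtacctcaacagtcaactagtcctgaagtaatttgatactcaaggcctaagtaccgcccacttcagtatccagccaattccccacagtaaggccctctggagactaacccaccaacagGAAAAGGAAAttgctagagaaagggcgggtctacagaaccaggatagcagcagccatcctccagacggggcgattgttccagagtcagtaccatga
Ifitm3: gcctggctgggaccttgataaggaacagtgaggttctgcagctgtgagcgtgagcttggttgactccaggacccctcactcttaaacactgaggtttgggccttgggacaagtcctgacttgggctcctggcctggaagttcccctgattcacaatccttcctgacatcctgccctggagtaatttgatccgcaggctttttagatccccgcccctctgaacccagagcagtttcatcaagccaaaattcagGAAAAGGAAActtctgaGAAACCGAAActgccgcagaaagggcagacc
In these windows Ifitm1 has 0 matches, Ifitm2 has 1 and Ifitm3 has 2. A match is a run of letters, not a bound site.

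Of the 3 D-type cyclins, which activate Cdk4 and Cdk6 and drive cells out of G1, Ccnd1 and Ccnd2 were in the same set. Ccnd1 ran from 5.90 to 7.21 (median 6.20) in 638bm and from 10.09 to 10.95 (median 10.59) in the VR line, a difference of 4.19 ± 0.15 (adjusted p = 1.16e-07). Ccnd2 ran from 6.52 to 7.28 (median 6.86) against 9.09 to 10.26 (median 9.46), a difference of 2.70 ± 0.13 (adjusted p = 7.92e-07). The ranges of each were apart. Of the other Ccnd2 probes, 1 differed by 2.56 and 1 by 0.25. The remaining D-type cyclin, Ccnd3, differed by -0.52 (adjusted p = 0.054) and did not pass the test. Rb1, the pocket protein that these kinases inactivate, was also higher at every time, by 1.53 ± 0.12 (adjusted p = 8.25e-06).

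Several metabolic enzymes were higher in 638bm VR at every time. Acot1, a thioesterase that frees fatty acids from coenzyme A, ran from 5.88 to 6.98 (median 6.15) against 9.97 to 11.65 (median 10.37) and differed by 4.28 ± 0.21 (19.4-fold). Khk, which phosphorylates fructose, ran from 5.97 to 6.92 (median 6.52) against 9.64 to 10.24 (median 9.97) and differed by 3.56 ± 0.11. For Adssl1, an enzyme of AMP synthesis, the ranges were 8.15 to 9.74 (median 8.55) and 12.04 to 13.03 (median 12.52), with a difference of 3.67 ± 0.19. None of the 3 had overlapping ranges, and their adjusted p-values ran from 6.48e-08 (Khk) through 7.43e-07 (Acot1) to 1.12e-06 (Adssl1). Tst, a mitochondrial sulfur transferase, was higher by 2.88 ± 0.11 (adjusted p = 1.58e-07). Igf2, an imprinted growth factor, ran from 5.52 to 5.74 (median 5.64) against 8.23 to 9.16 (median 8.59), a difference of 3.05 ± 0.14 (adjusted p = 4.95e-07). The remaining leading genes were Homer2 (3.40 ± 0.10), a synaptic scaffold, Tmem51 (3.75 ± 0.17), the tubulin Tubb6 (4.05 ± 0.24), Epb41l4a (3.37 ± 0.20) and Rcan2 (2.91 ± 0.15), a calcineurin regulator. In 638bm, Tst was above background on 3 of the 6 arrays, Tmem51 and Rcan2 on 2 each and Epb41l4a on 5. A second Epb41l4a probe differed by 0.37. Wwc2, of the Kibra family of Hippo pathway regulators, was above background on none of the 638bm arrays (mean 5.13) and on all 6 VR arrays (mean 9.18), which makes it at least 13.4-fold higher (adjusted p = 6.48e-08). Of the other Wwc2 probes, 1 differed by 4.05 and 1 by 1.29.

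Genes lower in 638bm VR at every time included regulators of cyclic AMP, phosphoinositide and B cell signalling. Pde4b, a phosphodiesterase that degrades cyclic AMP, ran from 10.76 to 12.36 (median 11.35) in 638bm and from 6.75 to 7.69 (median 7.05) in the VR line, and the difference was -4.36 ± 0.14 (adjusted p = 6.48e-08). Klhl6, a ubiquitin ligase adaptor of B cells, ran from 10.82 to 11.54 (median 11.05) against 6.79 to 8.57 (median 7.12), a difference of -3.60 ± 0.17 (adjusted p = 7.27e-07). Sgk1, a kinase activated downstream of phosphoinositide 3-kinase, ran from 8.67 to 10.47 (median 9.45) against 5.70 to 6.05 (median 5.87), a difference of -3.50 ± 0.20 (adjusted p = 1.28e-06). In each the lowest 638bm array stood above the highest VR array. A second Pde4b probe differed by -0.46, and the other Klhl6 probes by -3.54 and -0.98.

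Other leading genes had signal in the VR line at or near background. Rd3l (means 9.52 and 5.03) was at least 16.2-fold lower and Esm1 (9.46 and 4.74), a secreted proteoglycan, at least 15.5-fold lower. St6galnac3, a sialyltransferase, was at least 9.91-fold lower (8.81 and 5.22), Speer3 at least 8.02-fold (8.51 and 5.06), Fam221a at least 5.94-fold (8.07 and 4.78), Arap2 at least 4.79-fold (7.76 and 4.90), Slc25a45 at least 4.54-fold (7.69 and 4.68) and Gramd1b at least 4.14-fold (7.55 and 4.73). The probes used for those 8 genes were above background on all 6 arrays of 638bm and 0 of 638bm VR. A second Gramd1b probe differed by -0.65 and was above background on 1 VR array, and a second Arap2 probe differed by -0.27 and was above background on 3 of the 638bm arrays. The sodium channel Scn11a differed by -3.83 ± 0.16, the Ras family member Diras2 by -3.55 ± 0.17 and Nyx by -3.69 ± 0.29. In the VR line Scn11a was above background on 1 of 6 arrays, Diras2 on 4 and Nyx on 5, and a second Nyx probe differed by -0.72. Tnfrsf4, the costimulatory receptor OX40, ran from 8.94 to 9.71 (median 9.18) against 6.53 to 6.75 (median 6.62), a difference of -2.65 ± 0.12 (adjusted p = 5.65e-07).

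**Figure D1:**
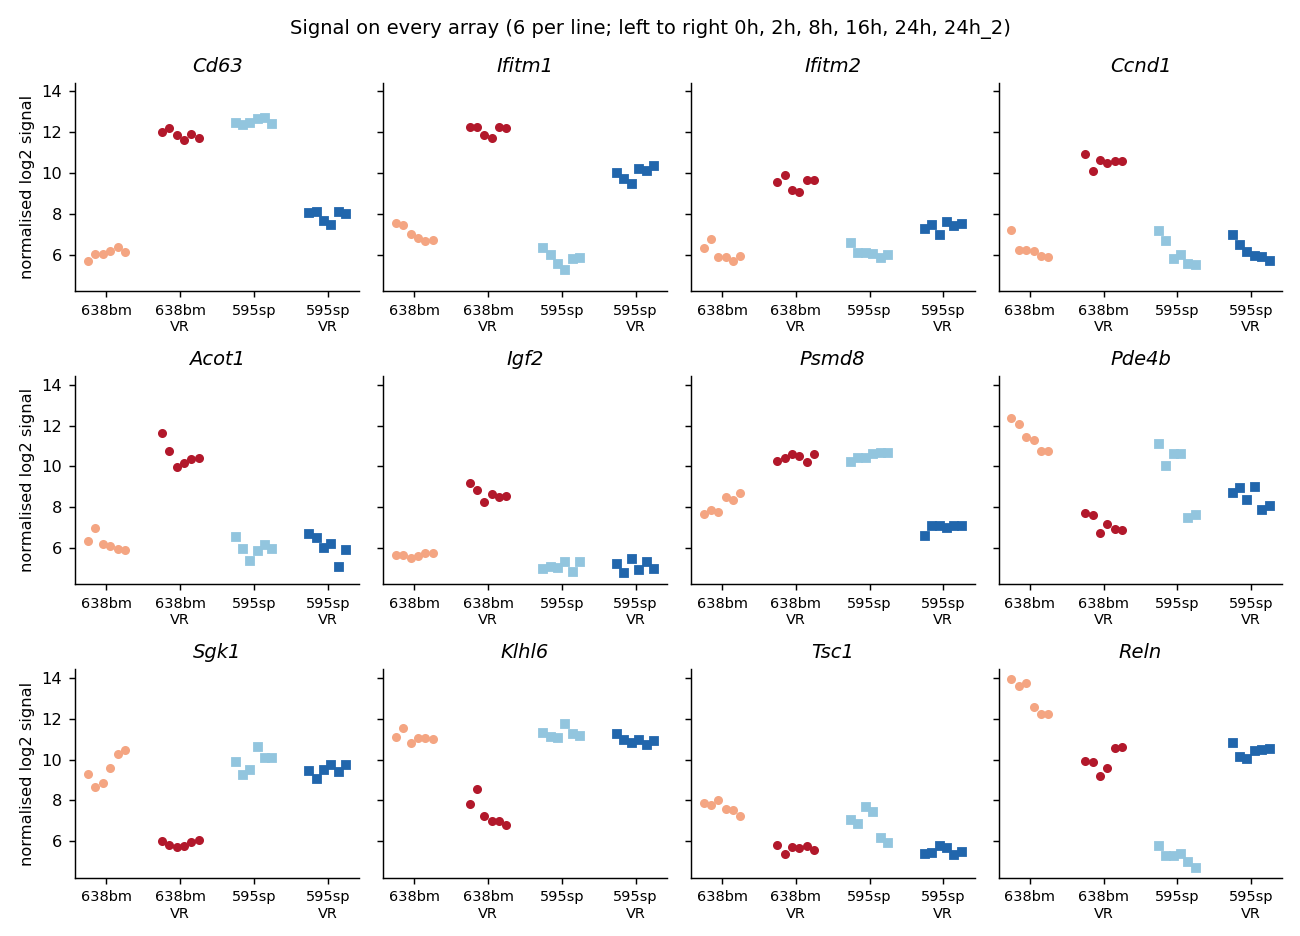
Normalised log2 signal of 12 genes on each array (vertical axes), 6 arrays for each of the 4 lines (horizontal axes), ordered within a line by time. In all 12 panels the 638bm and 638bm VR points are separate; Cd63 stands at 5.70 to 6.36 in 638bm and 11.62 to 12.20 in 638bm VR, and the 595sp lines go the other way.

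The line difference was not spread evenly over the genome. Gene positions came from the RefSeq table of assembly GRCm38.p6 and were used for chromosome and order only. Genes of chromosome 7 (864 tested) were higher in 638bm VR by a median of 0.354 log2 units, those of chromosome 14 (361) by 0.335 and those of chromosome 12 (365) by 0.321. Genes of chromosome 16 (352) were lower by a median of -0.402 and those of chromosome 4 (692) by -0.295. The medians of the other 15 chromosomes lay between -0.02 and 0.084. Each shift was present in every matched pair. Over the 6 pairs the median ran from 0.355 to 0.406 for chromosome 7, from 0.311 to 0.390 for chromosome 14, from 0.247 to 0.426 for chromosome 12, from -0.438 to -0.351 for chromosome 16 and from -0.369 to -0.255 for chromosome 4. The 8h and 24h_2 pairs, whose arrays stood in the same blocks of 6 neighbouring table columns, gave 0.355 and 0.406 for chromosome 7 and -0.351 and -0.409 for chromosome 16.

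On chromosomes 7, 12 and 14 together 794 of 1590 genes (49.9%) were called higher in 638bm VR and 142 (8.93%) lower. On chromosomes 4 and 16 the counts were 84 of 1044 (8.05%) higher and 510 (48.9%) lower. On the other chromosomes 2171 of 8305 genes were higher (26.1%) and 1885 lower (22.7%). The 607 steady differences followed the same split, with 143 higher and 21 lower on chromosomes 7, 12 and 14, 5 higher and 85 lower on chromosomes 4 and 16, and 150 higher and 202 lower elsewhere. These 5 chromosomes were singled out after their values were seen, and the shares are a description with no test. Ifitm1, Ifitm2, Ccnd1, Homer2 and Igf2 lie on chromosome 7, Acot1 and Adssl1 on chromosome 12, Rb1 on chromosome 14, Pde4b and Tnfrsf4 on chromosome 4 and Klhl6 on chromosome 16, whereas Cd63 and Sgk1 lie on chromosome 10 and Tmem51, higher in the VR line, on chromosome 4. Without the filter on dim probes the 5 medians kept their signs but were 0.073 to 0.116 in size, and with genes kept only if above background on at least 4 of the 12 arrays the chromosome 7 median was 0.566.

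**Figure D2:**
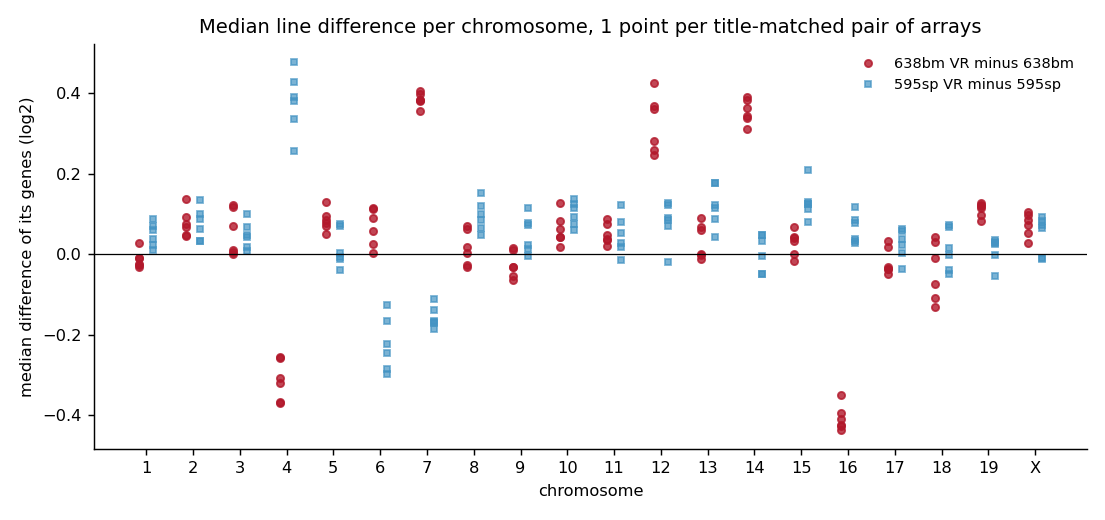
Median difference of all tested genes of a chromosome (vertical axis, log2) by chromosome (horizontal axis), with 1 point per matched pair of arrays; circles are 638bm VR minus 638bm and squares 595sp VR minus 595sp. The 6 circles of chromosomes 7, 12 and 14 all lie above 0.2 and those of chromosomes 4 and 16 all lie below -0.2.

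Along the chromosomes the shifts extended over long stretches. In windows of 25 neighbouring genes, with any remainder in the last, 14 of 14 windows of chromosome 14 had a median above 0 and 14 of 14 windows of chromosome 16 one below 0. On chromosome 4, 26 of 27 windows were below 0, the exception at 0.011. On chromosome 12, 13 of 14 were above 0, with the last window, which starts at Ckb, at -0.098. On chromosome 7 the first 7 windows ranged from -0.029 to 0.254 and the 27 windows that follow, from B9d2 on, from 0.111 to 0.792; this boundary was set after seeing the values. In the 595sp pair the chromosome 4 median went the other way (0.373, pairs 0.256 to 0.477) and that of chromosome 7 was -0.151 (-0.185 to -0.112), while those of chromosomes 12, 14 and 16 were 0.089, -0.002 and 0.084. The partner lines also differed from each other. Untreated 638bm minus untreated 595sp, on 1 array per line, had medians of -0.425 on chromosome 7 and 0.516 on chromosome 4. On chromosomes 12, 14 and 16 they were 0.031, -0.066 and 0.027. DNA copy number was not measured here, and the cause of the shifts was not tested.

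**Figure D3:**
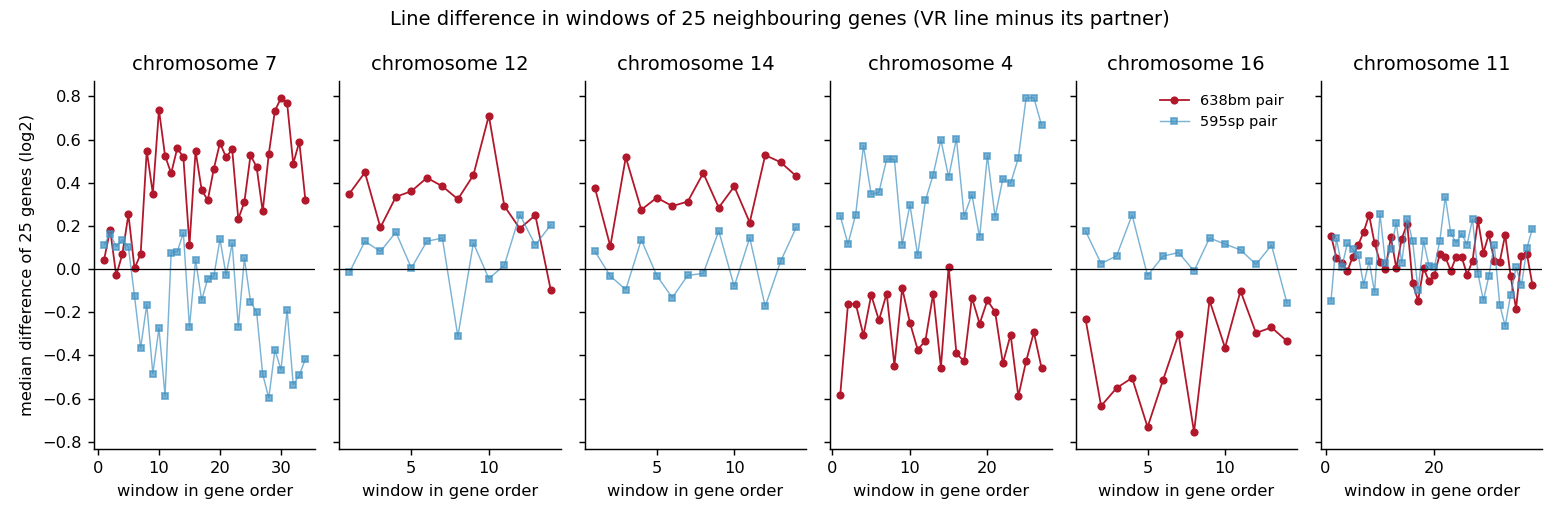
Median line difference of windows of 25 neighbouring tested genes (vertical axes, log2) in gene order along chromosomes 7, 12, 14, 4 and 16 and, for comparison, chromosome 11; circles are the 638bm pair and squares the 595sp pair. The 638bm pair stays above 0 along chromosome 14 and below 0 along chromosome 16, and on chromosome 7 it is between -0.029 and 0.254 in the first 7 windows and between 0.111 and 0.792 after them.

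Among proteasome genes, the 19S cap was the group with the most members higher in 638bm VR. Of its 16 measured genes 10 were higher and 0 lower, with a median difference of 0.515 beside 0.057 for all genes, and 6 of the 10 lie on chromosomes 7, 12 and 14. Among all tested genes 27.8% were higher and 23.2% lower, and on those chromosomes 49.9% were higher. Psmd8, a subunit of the 19S lid, ran from 7.66 to 8.69 (median 8.12) in 638bm and from 10.19 to 10.61 (median 10.47) in the VR line, with a difference of 2.37 ± 0.15 (adjusted p = 2.43e-06). Psmd6 differed by 1.19 ± 0.19 and the ATPase subunit Psmc4 by 0.87 ± 0.11. Psmb5, which bortezomib binds, ran from 8.01 to 8.55 (median 8.20) against 8.44 to 10.11 (median 9.63) and differed by 1.21 ± 0.17 (adjusted p = 0.000244). Its ranges overlapped. In the 20S core 2 of 11 genes were higher (Psmb5 and Psma4) and 1 lower (Psmb2, on chromosome 4), with a median of 0.211. Of those 2 higher genes 1 lies on chromosomes 7, 12 and 14. Both shares of the 20S core are below those of all tested genes. Of 11 immunoproteasome and activator genes 6 were higher and 1 lower (median 0.497), among them the 11S activator subunits Psme1 (1.25 ± 0.11) and Psme2 (1.20 ± 0.13), both on chromosome 14.

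Transcripts of the MHC class I and peptide loading list were lower. Of 12 measured genes 11 were lower and 0 higher (median -0.843), and 12 of the 12 lie outside the 5 shifted chromosomes. Beside this, 23.2% of all tested genes were lower and 27.8% higher (median 0.057). H2-M3, a nonclassical class I molecule, ran from 8.75 to 9.16 (median 8.95) against 7.08 to 7.59 (median 7.42), a difference of -1.62 ± 0.12 (adjusted p = 4.12e-06). Nlrc5, the transactivator of class I genes, differed by -1.33 ± 0.12 and H2-D1 by -1.08 ± 0.12. The same genes were lower still in the 595sp pair, by -2.39, -2.32 and -2.04. The other H2-D1 probes differed by -0.91 and -0.54 in the 638bm pair. The class II list had 8 of 13 genes lower and 3 higher (median -0.774), with Cd74 lower by -0.98 ± 0.11 and H2-Oa, which inhibits peptide loading, higher by 1.53 ± 0.13. Interferon-stimulated genes other than the Ifitm family were lower in 11 and higher in 3 of 24 (median -0.312). Ifi27l2a was lower by -1.18 ± 0.14. In the 595sp pair the medians of these lists were lower still, at -1.672 for class II and -0.989 for interferon-stimulated genes.

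Growth signalling and survival genes were mixed. In the list of phosphoinositide 3-kinase, Akt and mTOR signalling 10 of 19 genes were lower and 4 higher (median -0.342). Besides Sgk1, Tsc1, a brake on mTOR complex 1, was lower by -2.06 ± 0.13, although 3 further Tsc1 probes differed by -0.19 to -0.95. Rictor, of mTOR complex 2, was lower by -1.39 ± 0.12, and Deptor, an mTOR inhibitor known for high levels in some human myelomas, was higher by 1.35 ± 0.12. The 6 other Rictor probes differed by -1.41 to -0.11 and another Deptor probe by 0.34. Fadd (1.59 ± 0.12) and Casp8 (1.18 ± 0.10), which carry death receptor signals, were higher at every time. The other Fadd probes differed by 0.64 to 1.62. In the p53 list 4 of 10 genes were higher and 3 lower. Zmat3 was higher by 1.97 ± 0.12 and Sesn1 by 1.25 ± 0.12, while the kinase Plk2 was lower by -1.89 ± 0.13 and Trp53inp1 by -1.45 ± 0.14. Plk2 was above background on 2 of the 6 VR arrays, and the other Sesn1 probes differed by 1.30 and 0.12. Of 16 Bcl-2 family genes 4 were higher, among them the death-promoting Bbc3 (1.11 ± 0.18), and 3 lower, among them Bcl2l11 (-0.99 ± 0.18), whose other probes differed by -0.91 to -0.03. The Bcl-2 family shares are near those of all tested genes (27.8% higher and 23.2% lower). In the phosphoinositide 3-kinase, Akt and mTOR list the share lower was larger than that. Both shares of the p53 list were larger too, on 10 genes.

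The genes of both transgenes were also read. The labels do not say whether the probes detect transgene transcripts. Bcl2l1, which codes for Bcl-XL, ran from 14.54 to 14.91 (median 14.65) against 13.92 to 14.68 (median 14.13) and differed by -0.46 ± 0.13 (adjusted p = 0.0111). Myc ran from 9.50 to 10.56 (median 10.38) against 10.36 to 10.79 (median 10.70) and differed by 0.52 ± 0.17 (adjusted p = 0.0281). The ranges of both overlapped. The Myc call was lost without the 0 h (0.35, adjusted p = 0.099), 2 h (0.44, adjusted p = 0.0887) or 8 h arrays (0.56, adjusted p = 0.0662), with the times of the characteristic (0.48, adjusted p = 0.0644) and with the column blocks as a term (0.12, adjusted p = 0.541), and the difference was -0.05 on the 24 h arrays alone (adjusted p = 0.703), all by limma. The Bcl2l1 call was lost with median scaling (-0.26, adjusted p = 0.0992).

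Metabolic lists differed in direction. The shares among all tested genes, for comparison, were 27.8% higher and 23.2% lower. Of 23 glycolysis and hypoxia-inducible factor genes 12 were higher and 3 lower (median 0.55), with Aldoa (1.66 ± 0.24) and Ldha (0.78 ± 0.12) on chromosome 7 and the glucose transporter Slc2a1 on chromosome 4 lower by -1.27 ± 0.19. Outside the 5 shifted chromosomes 8 of 17 were higher and 2 lower. Egln3, an oxygen-sensing hydroxylase, was at least 4.86-fold higher (means 4.75 and 7.71). A second Egln3 probe differed by 0.17. Of 24 glutathione and oxidative defence genes 12 were higher and 1 lower (median 0.297), and the ferritin light chain Ftl1 led with 1.79 ± 0.18. Fatty acid synthesis and lipid genes were lower in 9 and higher in 2 of 16 (median -0.684). The desaturase Fads1 (-1.89 ± 0.19) and the elongase Elovl5 (-1.65 ± 0.16) were lower, and the fatty acid carrier Fabp5 (1.56 ± 0.12) was higher. A second Fads1 probe differed by -0.23. Of 13 cholesterol genes 6 were lower and 1 higher (median -0.525).

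Cell identity genes were called in both directions. Slamf7, a plasma cell surface receptor, ran from 7.56 to 8.92 (median 7.73) against 5.60 to 5.84 (median 5.74) and differed by -2.32 ± 0.17 (adjusted p = 5.69e-06), and Cxcr4, the homing receptor for Cxcl12, differed by -1.28 ± 0.13. Tnfrsf13b and Tnfrsf13c, receptors for the survival factor Baff, were higher by 1.33 ± 0.13 and 1.24 ± 0.14. Spib, a transcription factor of B cells, was higher by 1.82 ± 0.13 and Bcl6, of germinal centre B cells, lower by -1.61 ± 0.21. In all 7 of 15 plasma cell genes were lower and 4 higher, and 7 of 21 B cell genes were higher and 3 lower, beside 27.8% higher and 23.2% lower among all tested genes. Zap70 (-2.26 ± 0.13) and perforin, Prf1 (-1.99 ± 0.12), were the T and natural killer cell genes that differed by over 1 unit at every time. Zap70 was above background on 2 of the 6 VR arrays. The other Zap70 probes differed by -1.79 and -0.51 and a second Prf1 probe by -0.88. Fzd6 (2.12 ± 0.14), a Wnt receptor, was higher, as was Smo, the Hedgehog transducer, by at least 3.63-fold (means 5.01 and 7.29). The other Smo probes differed by 0.67 and 0.91.

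Most of the steady genes also differed between the pairs of lines. The difference between VR line and partner was itself compared between the 638bm and the 595sp pair (limma, time within origin). In that test 5219 genes were called (47.6%), 2649 more positive in the 638bm pair (24.1%) and 2570 more negative (23.4%). Of the 607 steady genes 527 were called. For 522 of these the 638bm difference minus the 595sp difference had the sign of the 638bm difference. Those were 290 of the higher and 232 of the lower genes. Their 638bm difference need not be the larger in size, as with Reln (-3.39 against 5.08 in the 595sp pair). The rule that chose the 607 genes uses the 638bm values of this test, so these counts are a description. Among the 607, 18 also differed by at least 1 unit in the same direction in all 6 pairs of 595sp arrays (2.97%), and 38 did so in the opposite direction. In either direction 409 of all tested genes met that rule in the 595sp pair (3.73%), and the 18 are 4.40% of them. The 3.73% counts both directions and the 2.97% counts 1, so the 2 shares are not alike. Ifitm1 was among the 18, at 4.15 in the 595sp pair.

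Cd63 was the extreme case of opposite differences. It was lower in 595sp VR than in 595sp by -4.65, and the pairs differed by 10.51 ± 0.21 (adjusted p = 3.9e-14). Psmd8 differed by -3.49 in the 595sp pair and by 5.87 ± 0.19 between pairs, and Tgfb3, a growth factor of the TGF-beta family, by -3.39 and 5.68 ± 0.22. Siglech, a sialic acid receptor, differed by -3.68 in the 595sp pair. Tmem51 and Papss2, an enzyme of sulfate activation, were above background in 595sp but not in 595sp VR, at least 9.54-fold and 10.6-fold lower there, whereas Papss2 was at least 4.15-fold higher in 638bm VR. Reln, a secreted matrix glycoprotein, ran from 12.24 to 13.97 (median 13.09) in 638bm and from 9.21 to 10.61 (median 9.91) in 638bm VR, and the difference of -3.39 ± 0.33 stood against 5.08 in the 595sp pair. A second Reln probe differed by -0.86 in the 638bm pair and -0.08 in the 595sp pair. A second Papss2 probe differed by 0.54 and -1.23. Rag1, the recombinase of lymphocyte receptor genes, was at least 5.31-fold lower in 638bm VR and at least 6.49-fold higher in 595sp VR. Before treatment, 638bm and 638bm VR were at least 1 unit apart in 1874 genes (r = 0.925 across genes), 638bm VR and 595sp VR in 1494 (r = 0.928) and 638bm and 595sp in 2029 (r = 0.905), each on 1 array per line and with no test.

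**Figure D4:**
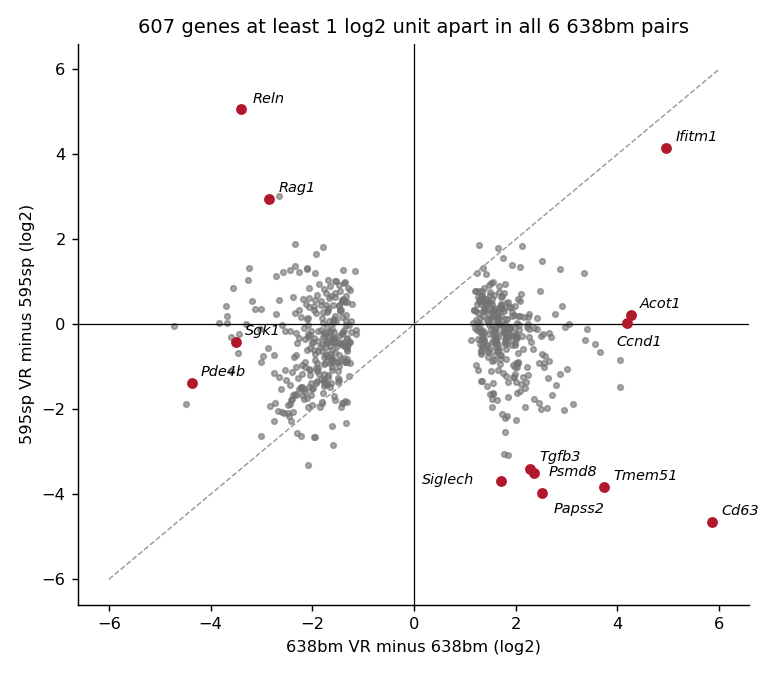
Fitted difference of the 607 steady genes in the 638bm pair (horizontal axis, log2) against their difference in the 595sp pair (vertical axis, log2), 1 point per gene, with equality dashed; genes at background in a line are drawn at their measured values. Points lie on both sides of 0 on the vertical axis, Ifitm1 lies near the dashed line at 4.97 and 4.15, and Cd63 lies at 5.87 and -4.65.

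The line difference was then compared between times. The difference at 8 to 24 h was set against that at 0 to 2 h, and 150 genes were called by limma (1.37%), 77 more positive late (0.702%) and 73 more negative (0.666%), 10 of them among the 607. This count rests on single times: it was 4 without the 16 h arrays, 1396 without the 8 h arrays, 22 without the 2 h, 32 without the 0 h and 58 without the 24 h arrays. The list of the integrated stress response, in which the kinase arm that senses amino acid shortage, unfolded protein and other stresses acts through Atf4, had 11 of 22 genes more negative late and 0 more positive, with a median of -1.14 beside -0.042 for all genes. Of 21 immediate early genes 4 were more negative late and 0 more positive (median -0.777). The other way, 3 of 13 cholesterol genes were more positive late and 0 more negative (median 0.903). Of 16 fatty acid and lipid genes 4 were more positive late and 1 more negative (median 0.656).

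Trib3, a pseudokinase induced by Atf4, stood in 638bm at 6.30, 6.55, 9.96 and 11.11 at 0, 2, 8 and 16 h and at 11.22 and 10.96 on the arrays at 24 h. In 638bm VR it stood at 7.19, 8.26, 8.09 and 8.09, and then at 7.91 and 7.91. It was thus higher in the VR line at 0 and 2 h and lower from 8 h on, and the difference changed by -3.99 ± 0.38 (adjusted p = 0.00194). Chac1, which degrades glutathione, stood at 6.31, 6.95, 10.07 and 10.50, then 10.11 and 10.29 in 638bm, and at 7.80, 8.89, 8.91 and 8.89, then 8.37 and 8.28 in 638bm VR. It crossed in the same way, and the change was -3.26 ± 0.26 (adjusted p = 0.000639). Trib3 and Chac1 were the 2 of 12 named genes whose call was kept in each of 18 alternative settings. For Atf3, a stress-induced factor, the change was -3.88 ± 0.54 (adjusted p = 0.0105), and its highest VR value, 10.37, was on the untreated array. Klf6 (-2.46 ± 0.42), the small heat shock protein Hspb1 (-2.77 ± 0.56) and the activation marker Cd69 (-3.00 ± 0.56) were more negative late as well. As for Atf3, the untreated VR array stood highest for Cd69 (9.81, then 6.81 at 2 h and 6.04 to 6.49 later) and Klf6 (11.38, then 9.15 at 2 h and 7.96 to 8.20 later), and Cd69 was already lower in the VR line at 2 h (6.81 against 8.61). Without the 0 h arrays the calls were lost, at -2.96 for Atf3 (adjusted p = 0.0683, limma), -1.84 for Cd69 (adjusted p = 0.162), -1.65 for Klf6 (adjusted p = 0.145) and -2.86 for Hspb1 (adjusted p = 0.186).

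Promoter sequences of the genes that crossed are given because Atf4 and its partners bind composite elements near the start of such genes. They are RefSeq windows of the same build and length, with matches to TGATGNAA on either strand in capitals. Trib3 is at chr2:152344011-152344310 (minus strand), Chac1 at chr2:119350992-119351291 (plus strand) and Atf3 at chr1:191183284-191183583 (minus strand).
Trib3: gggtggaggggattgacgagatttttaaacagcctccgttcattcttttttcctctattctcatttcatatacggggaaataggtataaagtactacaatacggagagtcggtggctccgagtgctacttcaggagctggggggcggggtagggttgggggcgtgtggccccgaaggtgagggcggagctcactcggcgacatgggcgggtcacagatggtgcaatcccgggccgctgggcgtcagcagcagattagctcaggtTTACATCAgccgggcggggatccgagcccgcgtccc
Chac1: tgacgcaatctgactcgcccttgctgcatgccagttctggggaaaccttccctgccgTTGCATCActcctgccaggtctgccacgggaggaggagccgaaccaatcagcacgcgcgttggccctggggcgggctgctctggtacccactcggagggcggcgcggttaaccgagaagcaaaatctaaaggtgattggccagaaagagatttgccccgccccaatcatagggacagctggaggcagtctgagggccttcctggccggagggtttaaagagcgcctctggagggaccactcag
Atf3: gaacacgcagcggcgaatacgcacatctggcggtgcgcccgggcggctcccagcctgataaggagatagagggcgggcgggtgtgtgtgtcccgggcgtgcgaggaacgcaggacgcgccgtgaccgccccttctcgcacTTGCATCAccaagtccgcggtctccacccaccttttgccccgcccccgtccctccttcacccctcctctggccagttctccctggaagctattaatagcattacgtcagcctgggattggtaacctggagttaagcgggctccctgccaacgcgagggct
Each of the 3 holds 1 match. A match was found in 4 of the 10 list members called more negative late that have a promoter entry, in 3 of the 10 measured members not called, and in 1096 of 27025 promoters (4.06%).

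Other genes converged. Cartpt, a neuropeptide precursor, fell in 638bm from 8.48 and 8.90 at 0 and 2 h to 5.69 and 5.89 at 24 h but stayed between 5.27 and 6.06 in 638bm VR, and the difference changed by 2.64 ± 0.32 (adjusted p = 0.0075). Uchl1, a deubiquitinase, stood at 5.54 and 6.24 in untreated and 2 h 638bm VR and between 9.06 and 9.76 from 8 h on, while 638bm stayed between 8.47 and 10.15; the change was 2.25 ± 0.28 (adjusted p = 0.008). Ebpl (2.40 ± 0.39), Wfdc21 (2.10 ± 0.36), Fads2 (2.08 ± 0.43) and Sdk1 (2.05 ± 0.28) were also more positive late. Ebpl crossed, from 11.66 in 638bm against 9.01 in 638bm VR at 2 h to 8.96 and 8.95 against 10.02 and 10.04 at 24 h. Each of these 6 calls was lost without the 16 h arrays, at values of 1.94 (Fads2) to 2.56 (Cartpt) and adjusted p-values of 0.0594 (Uchl1) to 0.221 (Fads2, limma). The Uchl1 change depended on the times used. With those of the characteristic, which names 24 h for the VR array titled 2h, it was 0.47 (adjusted p = 0.815, limma).

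**Figure D5:**
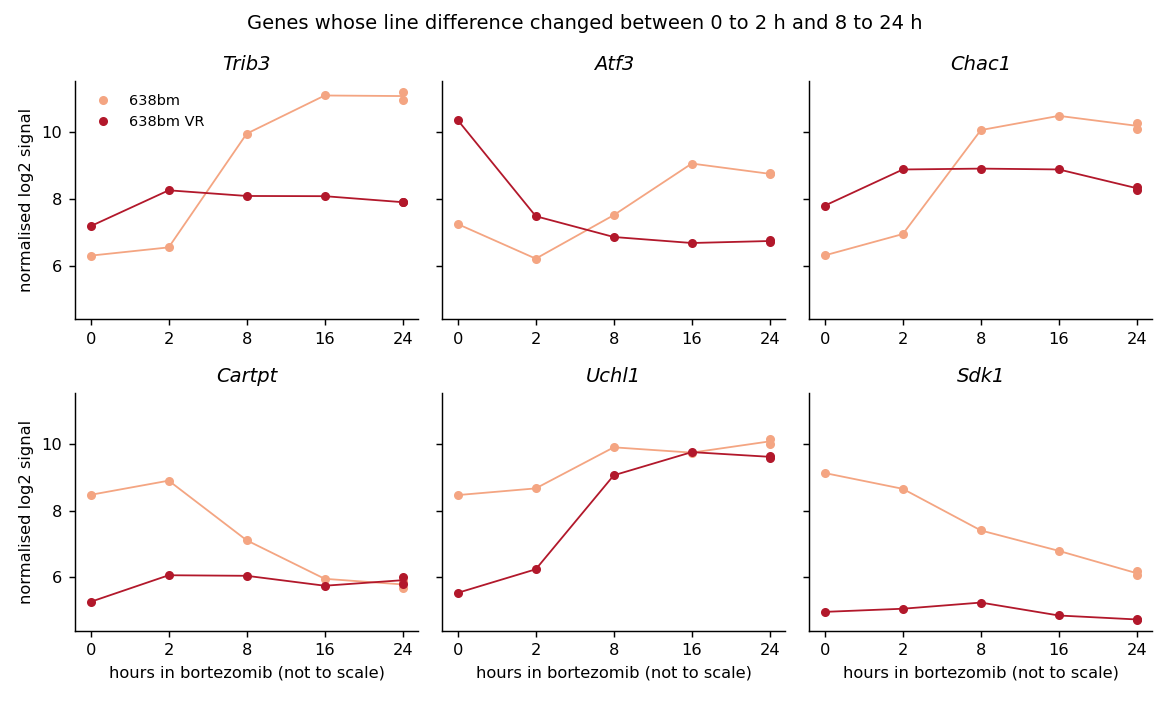
Normalised log2 signal (vertical axes) of 6 genes by hours in bortezomib (horizontal axes, evenly spaced) in 638bm and 638bm VR (colours in the key), with 1 point per array and lines through the mean at 24 h. Trib3 and Chac1 cross between 2 and 8 h, and Uchl1 in 638bm VR goes from 5.54 to 9.76.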

How the data were processed

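Extracted total RNA was turned into biotin-labelled material with an Illumina amplification kit, per the labels' protocols, and read on bead arrays. The deposited table holds 1 average signal intensity per probe and array, not normalized per the file headers. The authors' processed table, also of intensity values, was an alternative only. No detection p-values, control probes or genome build are given in the sources used here.

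Background was corrected by normexp (limma 3.58.1, R 4.3.3, offset 16), arrays were quantile normalized together and log2 taken, which understates differences of dim genes. The mode of each array's unnormalized log2 signals and the spread of the values under it gave a background, and probes over the mode plus 2.326 SDs counted as above it. Probes above background on at least 2 of 24 arrays were kept (21543), and the brightest stood for a gene. Of 45281 probes 34885 had 1 symbol, 18 several and 10378 none, and 34807 matched the RefSeq table. Both 24 h arrays of a line were averaged. Fits used lmFit and eBayes (4, 8 and 3 residual degrees of freedom) with Benjamini-Hochberg adjustment over 10969 genes. Errors are standard errors. For a bound, the dim line was set, per array, at the higher of its own signal and the dimmest signal above background.

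Genes were named by rule: the 15 in each direction with the largest smallest difference over pairs, the 8 in each direction differing most between pairs, the 6 in each direction changing most late, up to 4 per list, and Psmb5, Myc and Bcl2l1. Provisional names were left out. Other list members are named only to complete small counts or to show markers. Members, lists and rules were chosen with earlier results of these data known. Of 142 other probes of named genes, 62 (of 49 genes) disagreed with the probe used in sign or by over 2-fold in the size of the difference, and 3 of opposite sign were above background on all 12 arrays (Pdia6, H2-T10 and Irgm1). The numbers 24h and 24h_2 did not pair the lines (r = 0.0257 between their deviations across genes). The number of arrays limits the precision.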

Additional observations from a re-analysis of the deposited data

Results flagged for a closer look

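These results were singled out because a line difference differed between the 2 pairs of lines or between early and late times, by the test of that difference. Between pairs 5219 genes were called. The difference in the 638bm pair minus that in the 595sp pair was 10.51 log2 units for Cd63, 7.57 for Tmem51, 6.50 for Papss2, 5.87 for Psmd8, 5.68 for Tgfb3, 5.51 for Wwc2, 5.39 for Siglech and 5.02 for Ckb. In the other direction it was -8.47 for Reln, -5.79 for Rag1, -5.67 for Sdk1, -4.68 for Esm1, -4.56 for Fstl3, -4.41 for Diras2, -4.30 for Itgb5 and -4.24 for Jhy. Values of genes at background in a line are fitted values and no bounds.

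Between late and early times 150 genes were called. The difference at 8 to 24 h minus that at 0 to 2 h was 2.64 for Cartpt, 2.40 for Ebpl, 2.25 for Uchl1, 2.10 for Wfdc21, 2.08 for Fads2 and 2.05 for Sdk1. It was -3.99 for Trib3, -3.88 for Atf3, -3.26 for Chac1, -3.00 for Cd69, -2.77 for Hspb1 and -2.46 for Klf6.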

How the results depend on the processing

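The counts of the line difference and of its comparison between pairs stayed within 1.5 times in each of their settings, with 5977 and 5561 genes under the replicate block, which kept 24h and 24h_2 as separate pairs. That block left the steady genes at 607 and gave 660 late calls. Late calls numbered 66 at an offset of 50, 42 when a gene's probes were averaged, 47 with the times of the characteristic, and 4 to 1396 with single times left out. Steady genes numbered 401 at an offset of 50, of which 399 were among the 607, 1505 at 1.5-fold and 75 at 2 log2 units. With median scaling 48.7% of the called genes were higher in place of 54.5%, and 42.2% of the steady genes in place of 49.1%. Of 185 genes named for the line difference 151 kept call and direction in every setting, as did 16 of 16 named between pairs. Some differences reversed, among them that of Bag3, which was 0.686 to 1.159 with single times left out. With the 24 h arrays alone Bag3 (-0.114), H2ac19 (-0.068), H2ac8 (-0.218), Ifitm3 (-0.021), Itga2b (0.131), Klf1 (-0.024) and Myc (-0.048) reversed. H2ac8 also did so with median scaling (-0.141), the characteristic's times (-0.051), the replicate block (-0.008), the column block (-0.102) and without 2 h (-0.091) or 8 h (-0.018). With single times or 24 h arrays left out, H2ac8 ranged from -0.091 to 0.123, H1f2 from -0.755 to 0.162 (0.148 without 16 h, 0.162 without 24 h) and Vim from -0.051 (without 2 h) to 0.884. Itga2b gave 0.068 with the column block and Irgm1 0.210 with the mean of probes. The causes were not tested. Signal over background limits dim genes: 69 of the 607 have only a bound.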
